A study of Mus musculus with 8 samples.

Results

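The data concern 10 genes that lie beside Nuak1 on mouse chromosome 10, read in neurons cultured from Nuak1 knockout (KO) and wild-type (WT) mice. Nuak1 encodes a kinase related to AMPK that acts in growing axons. The genes were taken by symbol from a count table of 32726 gene identifiers, and all 10 were found there: Gm4924, Glt8d2, Hcfc2, Nfyb, Txnrd1 and Chst11 on the lower-coordinate side of Nuak1, and Ckap4, Tcp11l2, Polr3b and Rfx4 on the higher-coordinate side. They were listed with the KO against WT result of these same libraries known. Their KO and WT values are therefore a description. Where a call of the fit over all genes is given for them, it is part of that description and not an independent test, and the sequencing lane, which the choice did not use, is tested.

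The KO mice carried a constitutive knockout allele of Nuak1, which the study genotyped by LacZ PCR. The colony was kept on a C57Bl/6JRj background. The study gives the allele name Nuak1tm1a(KOMP)Wtsi for its floxed mice and does not state how the constitutive allele was derived. Neurons were prepared from embryos and collected after 5 days in serum-free culture. The study used 4 animals per condition, and 4 KO and 4 WT libraries of poly-A RNA (KO1 to KO4 and WT1 to WT4) were sequenced. The study describes the cultures as cortical, whereas the tissue label of each library names cortex or hippocampus. The WT group carried no allele or treatment that the labels name. Each library also has a lane label, A for KO1, KO4, WT1 and WT3 and B for the others, and a strain label whose meaning the labels do not explain. That label was BJ for KO1, KO2 and KO3, BK for KO4, WT2 and WT4, BO for WT1 and BQ for WT3, so BK was the single strain label found in both genotypes.

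A targeted allele is made in embryonic stem cells and is then passed on together with the DNA that flanks it, since recombination rarely separates close neighbours. In these libraries, which hold 1 targeted allele, the loss of NUAK1 and the flanking DNA inherited with the allele cannot be told apart.

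Libraries held 31247078 to 67155004 counts, with a median of 39224504. At that depth 3 counts correspond to 0.0447 to 0.0960 CPM (counts scaled by the total of the library), and all 10 genes lay far above that floor. Nuak1 itself, the check of the labels, was at 1.96 to 2.72 CPM in the KO libraries and 51.6 to 82.6 CPM in the WT libraries, a log2 fold change of -4.89 (SE 0.133). Libraries KO1 and WT1 stood apart from the other 6 on the surrogate variable, an estimate of unwanted variation that was kept in the model, with values of -0.558 and -0.621 against 0.0479 to 0.392. Markers of neurons summed to 1124 to 2337 CPM in the KO libraries and 1066 to 2137 CPM in the WT libraries. Markers of astrocytes and radial glia were also abundant, at 1509 to 1945 CPM in the KO libraries and 1302 to 1850 CPM in the WT libraries. The 6 microglial markers summed to 2.64 to 29.6 CPM in the KO libraries and 2.96 to 13.3 CPM in the WT libraries, with Cx3cr1 reaching 10.6 CPM in KO3 and P2ry12 at most 0.249 CPM. The 10 endothelial and fibroblast markers summed to 18.6 to 38.9 CPM and 8.91 to 50.6 CPM in the same order, with Dcn reaching 30.1 CPM in WT4 and Cldn5 at most 0.0384 CPM. The 4 markers of dividing cells, all with a positive log2 fold change, summed to 145.6 to 252.8 CPM in the KO libraries and 58.8 to 185.1 CPM in the WT libraries. The 5 interneuron markers, 4 of them positive, summed to 175 to 316 CPM and 153 to 254 CPM in the same order, and the 5 markers of the oligodendrocyte lineage, 2 of them positive, to 459 to 552 CPM and 446 to 535 CPM. The ranges of the genotypes overlapped for every list. In bulk RNA of this kind, fewer cells of a type and less RNA per cell cannot be told apart.

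The 10 genes span 2.55 Mb of chromosome 10 (GRCm38, chr10:82354525-84906538), with Nuak1 at chr10:84370900-84440668 on the minus strand. Ckap4 was the closest, 0.0856 Mb from the Nuak1 gene body, and Gm4924 the farthest, 1.99 Mb away. They do not belong to one family or pathway. Txnrd1 encodes the cytosolic thioredoxin reductase, a selenoprotein that keeps thioredoxin reduced. Polr3b encodes the second-largest subunit of RNA polymerase III, which makes transfer RNAs and other short RNAs. Ckap4, also called CLIMP-63, is a membrane protein of endoplasmic reticulum sheets that binds microtubules. Rfx4 is a transcription factor of the RFX family, active in radial glia and astrocytes of the developing brain. Nfyb is a subunit of NF-Y, the factor that binds CCAAT boxes, and Hcfc2 is a paralogue of the transcriptional coregulator host cell factor. Chst11 is a sulphotransferase that modifies chondroitin sulphate chains. Glt8d2 and Tcp11l2 are named for their similarity to glycosyltransferases and to TCP11, and Gm4924 is a predicted protein-coding gene.

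Levels between genes are compared here only per length, as CPM per kilobase of exon (FPKM), averaged over the 8 libraries. Txnrd1 had the highest level, 29.2 FPKM, above 87.3% of the genes tested, and Ckap4 followed with 22.3 FPKM. Their ranges over libraries, 22.3 to 34.9 FPKM for Txnrd1 and 17.2 to 27.3 FPKM for Ckap4, overlapped. Chst11 came next, at 14.3 FPKM, with a range of 12.1 to 19.3 FPKM that overlapped that of Ckap4. Tcp11l2, Nfyb, Hcfc2 and Polr3b lay close together, at 9.54, 8.87, 7.27 and 7.13 FPKM, below the range of Chst11, and the ranges of neighbours in that order overlapped. Rfx4 followed at 4.57 FPKM (range 3.70 to 5.86), overlapping Polr3b (range 5.60 to 8.35), and Gm4924 at 3.77 FPKM (range 2.43 to 5.41), overlapping Rfx4. Glt8d2 was the lowest of the set, at 0.289 FPKM (range 0.207 to 0.428), below the range of Gm4924 and above 8.12% of the genes tested.

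The clearest separation between genotypes was seen for Gm4924, Txnrd1 and Polr3b, which were higher in each KO library than in each WT library. In the other 7 genes the genotypes overlapped. Over all 16272 genes tested, CPM values did not overlap in 2.4%, 1.54% with KO higher and 0.86% with KO lower. After TMM scaling 3 of the 10 genes again did not overlap, beside 2.3% of all genes. Without KO1 and WT1 they were 4, beside 10.2%, on lane A alone 3, beside 16.8%, and on lane B alone 5, beside 42.8%. After Benjamini-Hochberg adjustment in the edgeR quasi-likelihood fit, Gm4924 was the 1 gene of the 10 under 0.05, beside 0.0492% of all genes tested (0.0123% higher and 0.0369% lower in KO). Leaving out any 1 of KO1 to KO4, WT1, WT2 or WT4 ended that call, and it held in 5 of 19 alternative fits. The choice of the genes used this contrast, so nothing is read from these counts. The log2 fold change was positive in 8 of the genes and negative in 2. Its median was 0.07 over the 10 genes and 0.01 over all genes tested, and the median size was 0.18 against 0.11.

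**Figure D1:**
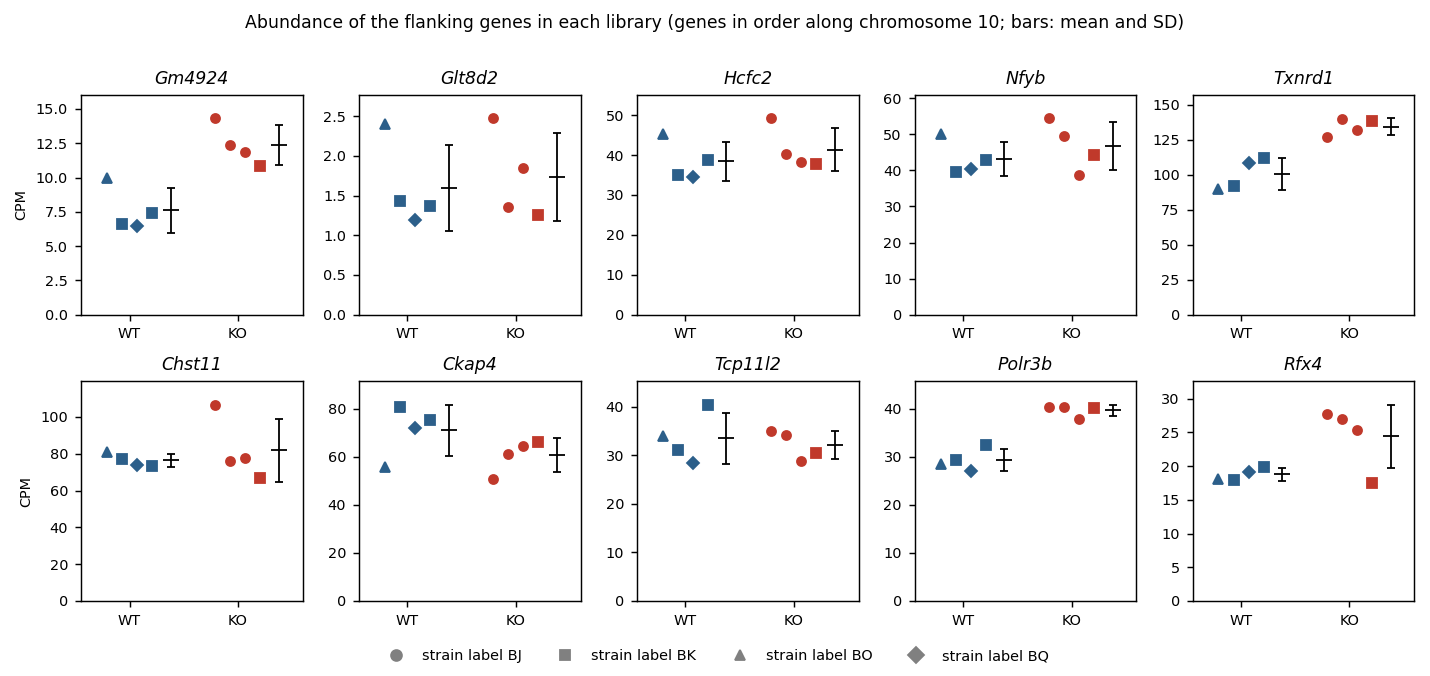
Abundance of the 10 genes in CPM (linear axes from 0), in order along the chromosome. Each point is 1 library, blue for WT and red for KO, with the marker giving the strain label and the bar the mean and SD of 4 libraries. Gm4924, Txnrd1 and Polr3b show no overlap between genotypes, and Rfx4 shows KO4 at 17.5 CPM, apart from the other KO libraries.

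Gm4924 (ENSMUSG00000073427, chr10:82354525-82379643, plus strand) was read at 14.3, 12.3, 11.9 and 10.9 CPM in KO1 to KO4. In WT1 to WT4 it was read at 9.99, 6.63, 6.44 and 7.42 CPM. All KO libraries were above all WT libraries, with WT1 the highest of the WT group and KO1 the highest of the KO group. KO averaged 12.4 ± 1.45 CPM and WT averaged 7.62 ± 1.63 CPM (SD, n = 4 per genotype), a log2 fold change of 0.66 (SE 0.0853) or 58.0% more in KO. Of all genes tested, 2.57% had a log2 fold change of that size or larger in either direction. Part of its transcript is shared with other places in the genome: 15.7% of the 2645 bases matched elsewhere at 95% identity or more over at least 50 bases, the highest share of the 10 genes, so reads from that stretch may be missing from the count of uniquely aligned reads. In the other 9 genes that share was at most 4.18%, in Tcp11l2. The 250 bases before its RefSeq start (GRCm38.p6, chr10:82354275-82354524, plus strand) are shown as the promoter of the gene with the largest fold change of the set, and they hold neither motif searched below.
Gm4924: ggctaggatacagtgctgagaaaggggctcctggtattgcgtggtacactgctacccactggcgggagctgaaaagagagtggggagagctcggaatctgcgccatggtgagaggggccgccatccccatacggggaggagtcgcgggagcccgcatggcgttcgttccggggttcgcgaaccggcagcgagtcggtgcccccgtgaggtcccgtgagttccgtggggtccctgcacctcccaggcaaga

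Txnrd1 (ENSMUSG00000020250, chr10:82833951-82897724, plus strand) was read at 127, 140, 132 and 138.5 CPM in KO1 to KO4. In WT1 to WT4 it was read at 89.8, 92.1, 109 and 112 CPM. The lowest KO library, KO1, was above the highest WT library, WT4. KO averaged 134.5 ± 5.93 CPM and WT averaged 100.6 ± 11.3 CPM (SD, n = 4 per genotype), a log2 fold change of 0.39 (SE 0.0628), 31.1% more in KO. No stretch of its longest transcript matched elsewhere in the genome at the limits given for Gm4924.

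Polr3b (ENSMUSG00000034453, chr10:84622292-84727178, plus strand) was read at 40.2, 40.3, 37.8 and 40.0 CPM in KO1 to KO4. In WT1 to WT4 it was read at 28.4, 29.3, 27.0 and 32.4 CPM. The KO values lay within a narrow band, with KO3 below the other KO libraries, and WT4 was the highest WT library. KO averaged 39.6 ± 1.22 CPM and WT averaged 29.3 ± 2.25 CPM (SD, n = 4 per genotype), a log2 fold change of 0.40 (SE 0.0705), 31.7% more in KO. Polr3b starts 7.94 kb beyond the end of Tcp11l2 and ends 28.9 kb before Rfx4.

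The promoters of these genes were searched on both strands for CCAAT, the NF-Y box, since Nfyb is one of the set, and for TGACNNNGC, the core read by NRF2, a regulator of many thioredoxin-pathway genes. RefSeq windows of 300 bases around the start were matched for 9 of the 10 genes, 13 windows in all. CCAAT was present in a window of Txnrd1 and of Rfx4, and in 37.4% of the 32851 windows of all genes. TGACNNNGC was present in a window of Txnrd1 and of Polr3b, and in 12.4% of all windows. A match is a string of letters and not a measured binding site. The parts before the start are printed for Txnrd1 (its second window, GRCm38.p6, chr10:82858956-82859205, plus strand) and Polr3b (GRCm38.p6, chr10:84622048-84622291, plus strand), since these windows hold a match. Capitals mark the matches: CCAAT and, read on the opposite strand, TGACNNNGC. The window of Polr3b holds 2 matches of TGACNNNGC, and 1 of them is in the printed part.
Txnrd1: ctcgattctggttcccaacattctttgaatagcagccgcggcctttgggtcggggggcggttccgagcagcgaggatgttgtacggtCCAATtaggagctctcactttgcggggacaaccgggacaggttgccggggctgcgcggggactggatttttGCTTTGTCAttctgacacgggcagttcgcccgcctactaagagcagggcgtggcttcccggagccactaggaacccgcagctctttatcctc
Polr3b: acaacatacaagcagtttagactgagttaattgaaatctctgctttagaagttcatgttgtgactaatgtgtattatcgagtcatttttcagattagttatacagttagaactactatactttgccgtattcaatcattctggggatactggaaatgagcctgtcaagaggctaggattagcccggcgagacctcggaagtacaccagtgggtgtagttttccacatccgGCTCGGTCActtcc

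Ckap4 (ENSMUSG00000046841, chr10:84526305-84533888, minus strand), the nearest of the 10 genes to Nuak1, had the most negative fold change of the set. It was read at 50.7, 61.4, 64.4 and 66.4 CPM in KO1 to KO4 and at 55.9, 80.7, 72.1 and 75.5 CPM in WT1 to WT4. WT1 lay below 3 of the KO libraries, and the other WT libraries lay above all KO libraries. KO averaged 60.7 ± 6.99 CPM and WT averaged 71.1 ± 10.7 CPM (SD, n = 4 per genotype), a log2 fold change of -0.25 (SE 0.0748), or -15.9%. The lowest library of each genotype was KO1 and WT1, the libraries that stood apart on the surrogate variable.

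Rfx4 (ENSMUSG00000020037, chr10:84756036-84906538, plus strand) was read at 27.7, 27.1, 25.4 and 17.5 CPM in KO1 to KO4 and at 18.1, 18.0, 19.2 and 19.9 CPM in WT1 to WT4. The 3 KO libraries of strain label BJ were above all WT libraries, and KO4, the KO library of strain label BK, was below all of them. KO averaged 24.4 ± 4.71 CPM and WT averaged 18.8 ± 0.928 CPM (SD, n = 4 per genotype), a log2 fold change of 0.33 (SE 0.122), 25.5% more in KO. Without KO4 the log2 fold change was 0.46. With the strain label in the model it was -0.13. Only BK held both genotypes, so that value rests on KO4 against WT2 and WT4.

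Rfx4 is expressed in astrocytes and radial glia, whose markers were read in every library. Of 9 such markers, 7 had a positive log2 fold change in KO and 0 passed the adjusted threshold of 0.05 in the edgeR quasi-likelihood fit. Their summed level in KO4, 1509 CPM, was the lowest of the KO libraries, and WT3 at 1302 CPM was the lowest of all. Aqp4, the astrocyte water channel, was at 140, 106, 137 and 30.8 CPM in KO1 to KO4 and at 108, 56.8, 37.3 and 63.3 CPM in WT1 to WT4. Gfap, the astrocyte filament protein, was at 73.8, 112, 235 and 7.12 CPM in KO and at 32.9, 12.5, 9.90 and 56.6 CPM in WT. KO4 had the lowest reading of all 8 libraries in these 2 of the 9 markers, as it did for Rfx4. It was the lowest of the KO libraries in 4 markers, Slc1a3, Aqp4, Gfap and Sox9, and not the lowest in the other 5, Fabp7, Aldh1l1, Vim, Hes5 and Nes. Nes, an intermediate filament gene of progenitors, was highest in KO4 among the KO libraries, at 91.3 CPM against 83.3 to 87.6 CPM, and Fabp7, a radial glia gene, was at 752 CPM in KO4 against 580 to 863 CPM. The part of glial or dividing cells in the Rfx4 values was not tested.

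**Figure D2:**
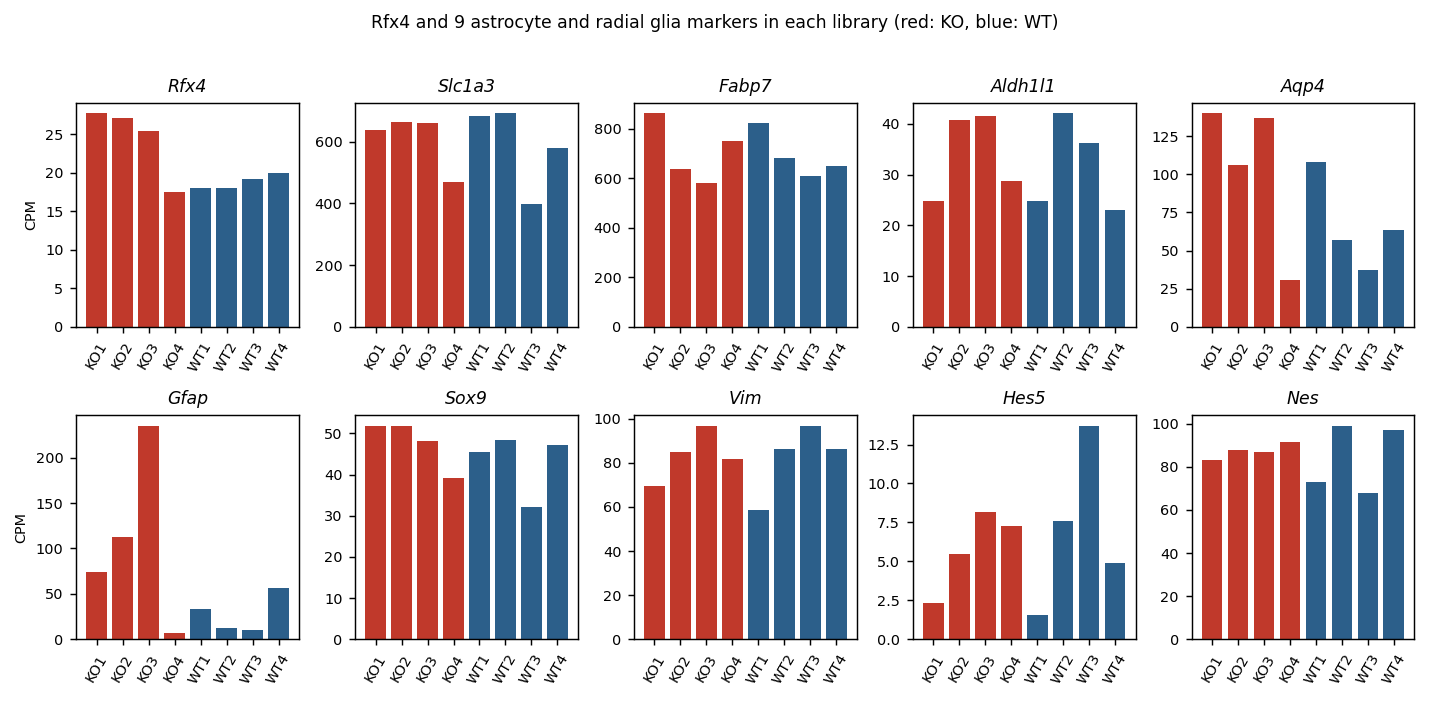
Bars give CPM (axes from 0) of Rfx4 and the 9 astrocyte and radial glia markers in each of the 8 libraries, red for KO and blue for WT, without error bars since each bar is 1 library. KO4 is the lowest of all bars for Rfx4 (17.5 CPM), Aqp4 (30.8 CPM) and Gfap (7.12 CPM), and it is not the lowest KO bar for 5 of the markers, Nes (91.3 CPM) among them.

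The remaining 5 genes showed differences smaller than or close to their errors. Hcfc2 (ENSMUSG00000020246, chr10:82699007-82795865, plus strand) was read at 49.2, 40.3, 38.3 and 37.7 CPM in KO and at 45.2, 35.0, 34.6 and 38.7 CPM in WT, a log2 fold change of 0.06 (SE 0.0545). Nfyb (ENSMUSG00000020248, chr10:82748700-82764151, minus strand) was read at 54.4, 49.4, 38.8 and 44.3 CPM in KO and at 49.96, 39.6, 40.4 and 42.8 CPM in WT, a log2 fold change of 0.06 (SE 0.0719). The RefSeq span of Hcfc2 holds all 15452 bases of Nfyb on the opposite strand, and whether strand was used in the counting is not stated, so reads of the pair may not be fully separate. Chst11 (ENSMUSG00000034612, chr10:82984440-83195904, plus strand) was read at 107, 76.0, 77.8 and 66.7 CPM in KO and at 81.0, 77.1, 74.1 and 73.5 CPM in WT. KO1 alone was above the WT range and KO4 alone below it, and the log2 fold change was 0.03 (SE 0.0916). Tcp11l2 (ENSMUSG00000020034, chr10:84576947-84614355, plus strand) was read at 35.0, 34.2, 28.8 and 30.5 CPM in KO and at 34.1, 31.02, 28.4 and 40.5 CPM in WT, a log2 fold change of -0.10 (SE 0.0982). Glt8d2 (ENSMUSG00000020251, chr10:82650431-82694125, minus strand) was read at 2.47, 1.36, 1.84 and 1.26 CPM in KO and at 2.40, 1.43, 1.20 and 1.37 CPM in WT, a log2 fold change of 0.07 (SE 0.181). KO1 and WT1 were its highest readings in their groups.

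KO1 and WT1 were both the highest of their genotype in 5 of the 10 genes and both the lowest in 2. Over all genes tested these shares were 25.8% and 33.5%. Gm4924, Glt8d2, Hcfc2, Nfyb and Chst11 were the 5, all on the lower-coordinate side of Nuak1. Ckap4 and Txnrd1 were the 2.

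The fold changes did not run in one direction along the chromosome. From Gm4924 to Rfx4 the log2 fold changes were 0.66, 0.07, 0.06, 0.06, 0.39 and 0.03 on the lower side, for Gm4924, Glt8d2, Hcfc2, Nfyb, Txnrd1 and Chst11. On the higher side they were -0.25, -0.10, 0.40 and 0.33, for Ckap4, Tcp11l2, Polr3b and Rfx4. Of the 10 genes, the neighbours of Txnrd1 were Hcfc2, whose span holds Nfyb, and Chst11, 86.7 kb away, and all of these had overlapping genotypes. Polr3b and Tcp11l2 are separated by 7.94 kb, with log2 fold changes of 0.40 and -0.10.

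A further 39 tested genes with a known position lie within 3 Mb of Nuak1, with Nuak1 itself left out. Positions were matched for 20886 of the 32726 identifiers. Tested genes without one are missing from these counts and from the nearest genes named below. Of these, 20 had a positive and 19 a negative log2 fold change, and the median was 0.0012. Adjusted p was under 0.05 in the edgeR quasi-likelihood fit for 2 of them, both lower in KO and both on the lower-coordinate side between Gm4924 and Glt8d2. Tdg, a DNA glycosylase that excises thymine from mismatches, fell from 8.06 to 9.16 CPM in WT to 2.13 to 3.02 CPM in KO (log2 fold change -1.82, adjusted p = 3.44e-04). Brawnin, a mitochondrial microprotein gene named 1190007I07Rik in the annotation used here, fell from 2.77 to 3.42 CPM to 0.825 to 1.41 CPM (log2 fold change -1.57, adjusted p = 0.0354). The spans of Glt8d2 and Tdg overlap by 369 bases on opposite strands, and Glt8d2 did not follow Tdg, with a log2 fold change of 0.07.

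Of the same 39 genes, 0 were higher in KO without overlap, 2 were lower without overlap and 4 had a log2 fold change above 0.25 in size. On the lower side the nearest tested genes outside the set were 1500009L16Rik, Appl2 and A230046K03Rik, with log2 fold changes of -0.02, -0.0005 and -0.15, the last with an adjusted p of 0.406 in the edgeR quasi-likelihood fit. On the higher side they were Ric8b, Fhl4 and AI597468, with 0.02, 0.24 and -0.03. Within 1 Mb 11 genes outside the set were tested and 0 passed the adjusted threshold, with 1 at an unadjusted p under 0.05. Within 5 Mb 145 were tested, with Tdg and Brawnin again the 2 that passed. Leaving out KO1, KO2, KO3, WT1, WT2 or WT4 lowered the 2 called genes to 1.

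**Figure D3:**
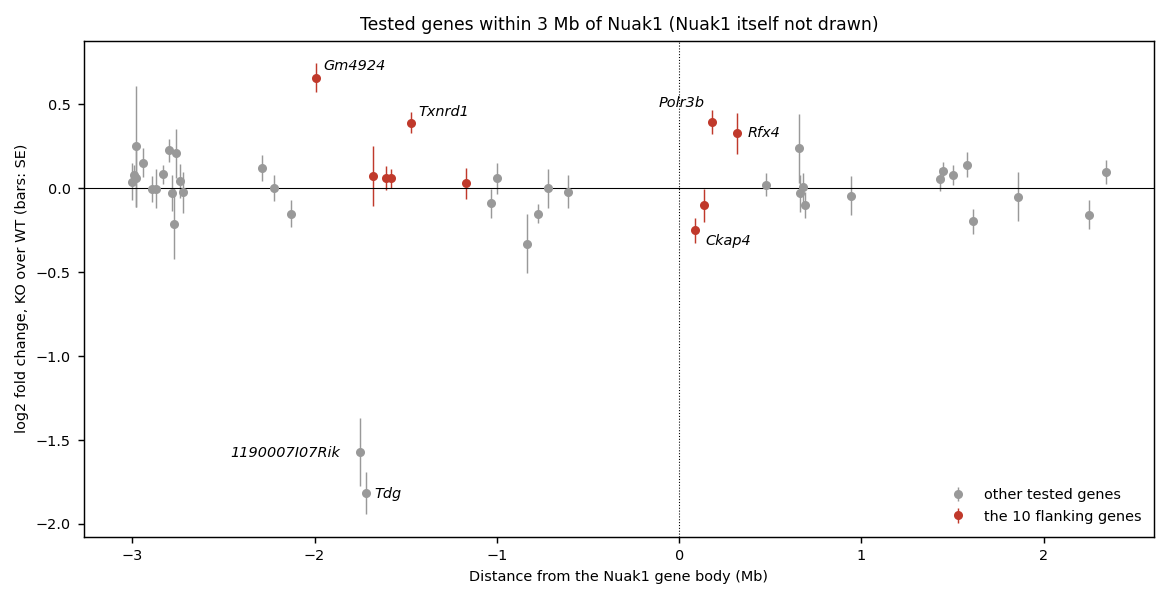
The log2 fold change of KO over WT (points, with SE bars) against the signed distance in Mb from the Nuak1 gene body, for the 10 genes (red) and the 39 other tested genes within 3 Mb (grey); Nuak1 is not drawn. Gm4924 at 0.66 is the highest point, Tdg at -1.82 and 1190007I07Rik (Brawnin) at -1.57 are the lowest, and most grey points lie near 0.

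Within strain label BK the 1 KO library, KO4, was set against WT2 and WT4. These values have no replicate check on the KO side. KO4 read 10.9 CPM of Gm4924 (exact 95% binomial interval 9.88 to 11.9, counting error only) against 6.63 and 7.42 CPM, a log2 ratio of 0.63. It read 138.5 CPM of Txnrd1 (interval 135 to 142) against 92.1 and 112 CPM, a log2 ratio of 0.44. It read 40.0 CPM of Polr3b (interval 38.1 to 42.0) against 29.3 and 32.4 CPM, a log2 ratio of 0.38. These 3 genes are the ones without overlap between genotypes, so KO4 could not lie below either WT library in them, and only the sizes are a description.

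Rfx4 differed, with 17.5 CPM in KO4 (interval 16.2 to 18.8) against 18.0 and 19.9 CPM and a log2 ratio of -0.12. Ckap4 was at 66.4 CPM (interval 63.9 to 68.9) against 80.7 and 75.5 CPM, a log2 ratio of -0.23. For Nuak1 the log2 ratio was -4.94, for Tdg -2.02 and for Brawnin -1.12. The other 5 genes had log2 ratios from -0.23 (Tcp11l2) to 0.10 (Nfyb). In all, 3 of the 10 genes were above both WT libraries with a log2 ratio over 0.25, and 0 were below both by as much. Over all genes tested, 16.3% were above and 17.0% below in that sense. The 3 are Gm4924, Txnrd1 and Polr3b, whose place above both was fixed by the lack of overlap. Nothing is read from this count.

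**Figure D4:**
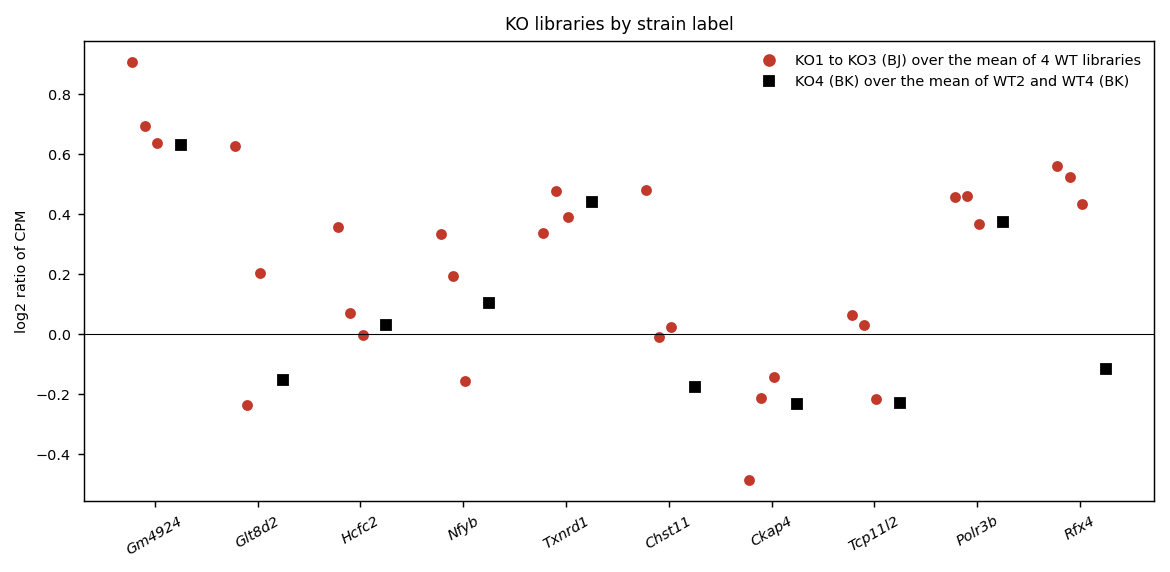
The log2 ratio of CPM for each KO library, by gene. Red circles give KO1, KO2 and KO3 (strain label BJ) over the mean of the 4 WT libraries, and black squares give KO4 over the mean of WT2 and WT4, which share its label BK. For Gm4924, Txnrd1 and Polr3b the squares are at 0.63, 0.44 and 0.38, and for Rfx4 the square is at -0.12 while the circles are above 0.

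The sequencing lane was a comparison that the choice of the genes did not use, with 2 libraries of each genotype on each lane. With genotype in the model, 0 of the 10 genes differed between lanes after adjustment over all genes tested (edgeR quasi-likelihood test, lowest adjusted p = 0.817), and 0 had an unadjusted p under 0.05. Of all genes tested, 0.0% passed the adjusted threshold and 6.02% had an unadjusted p under 0.05. DESeq2 gave 36 genes between lanes. The log2 difference of lane A over lane B ran from -0.18 for Ckap4 to 0.29 for Glt8d2. The lane fit held no surrogate variable, and KO1 and WT1, which stood apart on it, are both on lane A. In each of the 10 genes the SE was larger than for genotype, for Gm4924 0.176 against 0.0853. Lane differences of moderate size may therefore have been missed.

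The genotype difference was also fitted within each lane, on 4 libraries without a surrogate variable. For Gm4924 it was 0.59 (lane A) and 0.72 (lane B) on the log2 scale, for Txnrd1 0.40 and 0.35, and for Polr3b 0.51 and 0.28, with the sign fixed in advance since the genotypes of these 3 do not overlap. Among genes whose genotypes overlap, it was for Ckap4 -0.14 and -0.38, and for Rfx4 0.26 and 0.40. Tcp11l2 had 0.04 on lane A and -0.24 on lane B, and Chst11 had 0.14 and -0.04, so these changed sign. A test of the interaction of genotype and lane gave 0 genes of the table at an adjusted p under 0.05 and 256 at an unadjusted p under 0.05, of which 0 were among the 10 genes (edgeR quasi-likelihood test, lowest unadjusted p of the 10 genes 0.287).

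Partners and paralogues of the 10 genes, encoded elsewhere in the genome, were followed in the same fit. Of 49 listed genes 47 were tested, and 0 passed an adjusted p of 0.05 in the edgeR quasi-likelihood test, with 4 higher and 6 lower in KO at an unadjusted p under 0.05. Over all genes tested 10.6% had an unadjusted p under 0.05. The median log2 fold change of the 47 was -0.02.

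Among 9 genes of the thioredoxin system, 7 had a positive log2 fold change and the median was 0.08. Prdx2, a peroxiredoxin that uses thioredoxin, had 0.18 (SE 0.0688, adjusted p = 0.415, edgeR), and the mitochondrial reductase Txnrd2 had 0.17 (SE 0.0858, adjusted p = 0.507, edgeR). Their KO and WT ranges overlapped. Among 10 other subunits of RNA polymerase III, 5 were positive and 5 negative, with a median of -0.01. Crcp, one of these subunits, had 0.18 (SE 0.0801, adjusted p = 0.467, edgeR).

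Among 11 tested genes of chondroitin sulphate synthesis and sulphation, 10 had a negative log2 fold change and the median was -0.23, with 5 lower in KO at an unadjusted p under 0.05 and 0 under an adjusted p of 0.05 (edgeR). Chst15, which adds a further sulphate to chondroitin sulphate, was at 30.5 to 31.5 CPM for KO and 32.0 to 45.7 CPM for WT, without overlap (log2 fold change -0.38, SE 0.105, adjusted p = 0.314, edgeR). Chsy3, a chondroitin synthase, had -0.30 (SE 0.0978, adjusted p = 0.368, edgeR), with ranges of 7.88 to 10.03 CPM for KO and 9.74 to 11.7 CPM for WT. Chst11 itself, the flanking gene of this pathway, had 0.03.

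All 5 tested genes that shape the endoplasmic reticulum had a negative log2 fold change, with a median of -0.13. Their KO and WT ranges overlapped in all 5, and 1 had an unadjusted p under 0.05 (edgeR). Ktn1, a kinesin-binding protein of its membrane, had -0.17 (adjusted p = 0.468, edgeR), and Atl1, which fuses its tubules, had -0.12 (adjusted p = 0.562, edgeR). Of 5 further RFX genes, 3 were positive. Rfx2 was at 0.747 to 2.05 CPM for KO and 0.288 to 1.13 CPM for WT, 0.97 on the log2 scale (SE 0.260, adjusted p = 0.312, edgeR), and Rfx3 had -0.13 (adjusted p = 0.636, edgeR). The NF-Y subunits Nfya and Nfyc had 0.05 and 0.09, and Hcfc1 and Hcfc1r1 had 0.05 and -0.06. Of the paralogues, Tcp11l1 had -0.27 (adjusted p = 0.492, edgeR) and Glt8d1 had 0.13 (adjusted p = 0.575, edgeR).

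**Figure D5:**
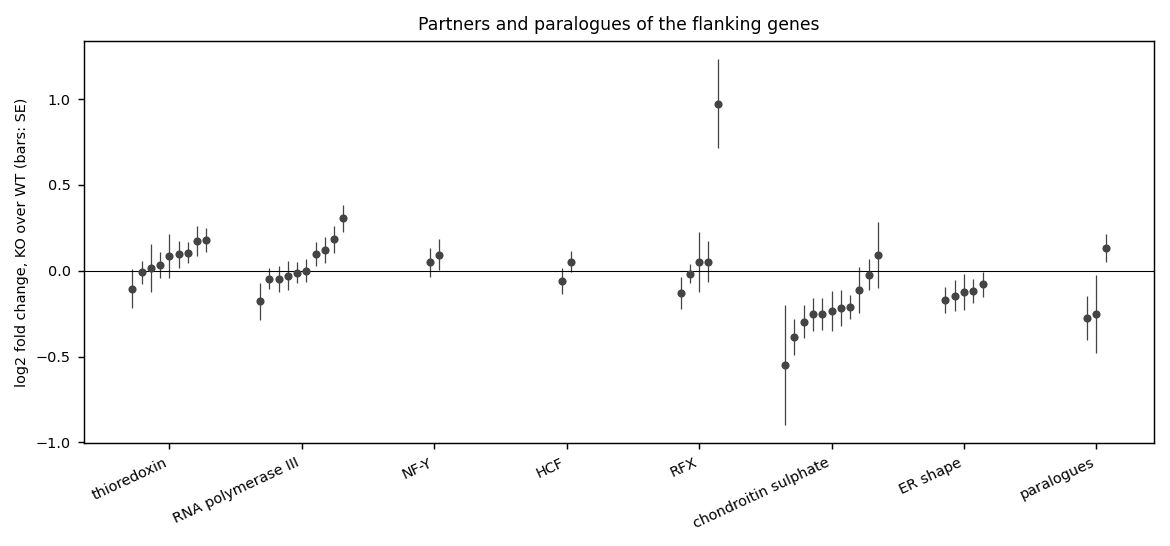
The log2 fold change of KO over WT (points, with SE bars) for the 47 tested partner and paralogue genes, grouped by the pathway or complex of the flanking gene they relate to. All 5 endoplasmic reticulum genes and 10 of 11 chondroitin sulphate genes lie below 0, Rfx2 at 0.97 is the highest point, and no gene of any group passed an adjusted p of 0.05.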

How the data were processed

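The authors deposited raw counts for each Ensembl gene, made with Cutadapt 1.10, removal of ribosomal reads, STAR 2.5.3a on mm10 and HTSeq 0.6.1p1 in union mode on uniquely aligned reads. Tool versions are those in the submitters' processing notes. Labels and methods differ on the read layout, and neither states whether HTSeq used strand. Union mode leaves reads of overlapping genes uncounted. The authors tested with DESeq2, surrogate variables and independent hypothesis weighting, which was not used here.

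Symbols were matched for 23260 identifiers, and GRCm38 positions for 20886 through a RefSeq gene table, by symbol. Exon lengths came from GENCODE M1 and promoter windows from RefSeq (GRCm38.p6). Longest transcripts were compared with NCBIM37 by blastn 2.17.0. No NCBIM37 coordinate is given.

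The test was edgeR 4.0.16 in R 4.3.3 (TMM, filterByExpr by genotype, robust quasi-likelihood F test) and 1 surrogate variable from svaseq (sva 3.50.0), with Benjamini-Hochberg adjustment over the 16272 genes tested at 0.05. The SE is the size of the log2 fold change divided by the square root of F. CPM is the count scaled by the library total. Fits within 1 lane, between lanes and of the interaction had no surrogate variable. DESeq2 1.42.0, other scaling, no filter, other terms and leaving out libraries were alternatives. TMM-scaled CPM and leaving out both KO1 and WT1 were added after the data were seen. Counts of genes without overlap within 1 lane, or with 1 library left out, were not planned in advance either. The procedure was tested on simulated data. Exact intervals are 95% binomial intervals of the count in the library total, and they and the 3-count floor cover counting error only.

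The 10 genes, the partner and marker lists and the tests were chosen with earlier results of these data known. Named genes were the 10, Nuak1, Tdg and Brawnin, other genes within 3 Mb past the adjusted threshold, the 3 nearest tested genes on each side, for each partner list the 1 or 2 genes of smallest p, and marker genes near 0. Astrocyte and radial glia markers, Cx3cr1 and Dcn were named after their values were seen. Lnpk and Map2 were not matched and are not analysed here. In addition, 1 gene that the rule names is not reported here. The labels do not tie libraries to animals.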

Additional observations from a re-analysis of the deposited data

Results flagged for a closer look

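Within the 4 KO libraries, Polr3b in KO3 lay far from the rest at 37.8 CPM, with the nearest other library at 40.0 CPM. The gap was 0.878 of the group's range, above Dixon's 95% critical value for 4 values. The KO range of Polr3b was narrow, and KO3 was still above all WT libraries. Of 20 groups examined in this way, 1 was singled out, and chance gives about 1.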

How the results depend on the processing

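The number of genes called was unstable. Against 8 genes in the table, 1 of the 10 flanking genes and 2 other genes near Nuak1 (edgeR, adjusted p under 0.05), leaving out the surrogate variable gave 4, 0 and 1, as did using 2 surrogate variables or lane as a term. The strain label as a term gave 1, 0 and 0, DESeq2 gave 185, 3 and 1, no filter gave 45, 2 and 2, lane A alone 0, 0 and 0, lane B alone 99, 1 and 2, and the 6 libraries without KO1 and WT1 (added after seeing the data, no surrogate variable) 3, 0 and 1. Within 1 Mb the other genes called were 0. Replicate number as a block gave 3, 0 and 1. The numbers were not taken to pair libraries, since deviations of same-numbered libraries correlated at 0.8003, 0.0122, 0.249 and 0.00225 and KO2, KO3 and KO4 each matched best a WT library of another number. Leaving out 1 library gave 3 to 91 genes in the table (91 without WT3), 0 to 3 of the flanking genes (3 without WT3, 0 without any other library) and 1 to 2 other genes near Nuak1. The cause was not tested.

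Gm4924 ranged from 0.59 to 0.74 on the log2 scale over 19 alternatives, and passed the adjusted threshold in 5. Txnrd1 ranged from 0.35 to 0.43 and Polr3b from 0.28 to 0.51. Ckap4 ranged from -0.38 to -0.14. Signs turned for Glt8d2 under the strain term (-0.171) and without KO3 (-0.0616; -0.0616 to 0.157 when 1 library was left out), for Chst11 under the strain term (-0.191), on lane B (-0.0382), without KO1 (-0.0702), without WT1 (-0.106; -0.106 to 0.0812 when 1 library was left out) and without both (-0.0634), for Tcp11l2 on lane A (0.0443), and for Rfx4 under the strain term (-0.129). Flanking genes without overlap between genotypes numbered 3 with all libraries, 5 on lane B alone, where 42.8% of all genes did not overlap, and 3 to 4 when 1 library was left out. Between lanes, 0 genes were called, 196 without a filter, 36 with DESeq2 and 0 to 1 when 1 library was left out. Partner genes called were 0 in all 19 alternatives. With 4 libraries a genotype, counts of calls rest on few residual degrees of freedom.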
